A study of Homo sapiens with 4 samples.

Results

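The insulin-like growth factor (IGF) binding proteins and carriers are 9 genes: the high-affinity binding proteins IGFBP1 to IGFBP6, the related low-affinity protein IGFBP7, the acid-labile subunit IGFALS, and the ligand IGF1. They were taken by gene symbol from tables of read counts per gene, and are 9 of the 16370 genes listed there. IGFs are polypeptide growth factors that circulate almost wholly bound to these proteins. The liver is the main source of circulating IGF1, of IGFALS and of IGFBP1, whereas most circulating IGFBP3 is made by non-parenchymal liver cells. IGFBP3 or IGFBP5 holds an IGF in a large ternary complex with IGFALS, which lengthens its stay in the blood. IGFBP1 is a short-lived carrier whose transcription in hepatocytes is repressed by insulin through FOXO1 and raised by fasting, hypoxia and amino acid shortage.

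RNA was sequenced from 4 cell lines with 1 library each. The hepatocellular carcinoma (HCC) group is made of Hep3B and Huh7, established human hepatoma lines. The hepatic cancer stem cell (HCSC) group is made of the stem-like cultures grown from them, named Hep3B-C and Huh7-C. No treatment, time or genotype separates the cultures in the labels, and how the HCSC were enriched is described only as a culture system. The comparison asked which genes differ between HCSC and the HCC cells they came from. As there was 1 library per line, each pair compares 2 libraries with no replicate check, and its intervals cover counting error only. In such bulk libraries, fewer cells of a type and less RNA per cell cannot be told apart.

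The libraries held 2896418 (Hep3B), 4641927 (Hep3B-C), 4537510 (Huh7) and 4333808 (Huh7-C) gene counts. At this depth 3 counts, taken as the detection floor, correspond to between 0.646 and 1.04 CPM (counts scaled to a common library size). All 9 hepatocyte markers examined, among them ALB, AFP and TTR, had more than 3 counts in every library. Their summed level was 53328 CPM in Hep3B against 71425 in Hep3B-C, and 47653 in Huh7 against 19625 in Huh7-C. SERPINA1 alone gave 40517 CPM of the Huh7 sum. AFP had 26 and 12 counts and TTR 13 and 13 in Huh7 and Huh7-C. The fibroblast markers DCN and ACTA2, the endothelial markers CDH5 and TEK, and the leukocyte markers PTPRC and CD3E were at 0 in all 4 libraries. The summed level of 8 fibroblast and stellate markers was 14.5, 10.8, 45.2 and 15.7 CPM in the same order, with 2 or 3 markers above 3 counts in each library. For 5 endothelial markers it was 3.11, 2.80, 3.97 and 21.5 CPM, with 1 marker above 3 counts in each. For 5 leukocyte markers it was 313, 451, 186 and 191 CPM, with 3, 3, 2 and 2 above 3 counts. Among these, CD68 had 99.8, 270, 134 and 99.9 CPM and LYZ 212, 179, 52.0 and 90.9 CPM. For 4 cholangiocyte markers the sum was 280, 94.6, 58.8 and 110 CPM, with 2, 2, 1 and 3 above 3 counts.

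The promoters of IGFBP3, lower in both stem-like lines, and IGFBP4, higher in Hep3B-C, are shown because the results below turn on these genes. Each is the RefSeq sequence (GRCh38.p14) from 250 bases before to 50 bases after a start site, in the gene's own direction. Entries were found for 7 of the 9 genes. IGFBP1 and IGFBP7 were not among them. Capitals mark matches, on either strand, to the hypoxia-response core GCGTG, the GC box GGGCGG and the TATA box TATAAA; none of the matches overlap.
IGFBP3, chr7:45921223-45921522, minus strand: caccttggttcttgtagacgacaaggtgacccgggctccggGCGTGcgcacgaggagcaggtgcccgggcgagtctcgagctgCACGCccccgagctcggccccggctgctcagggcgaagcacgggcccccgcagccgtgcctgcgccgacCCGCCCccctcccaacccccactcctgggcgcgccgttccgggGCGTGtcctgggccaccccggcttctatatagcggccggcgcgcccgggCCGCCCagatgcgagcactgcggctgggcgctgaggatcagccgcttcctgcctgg
IGFBP4, chr17:40443200-40443499, plus strand: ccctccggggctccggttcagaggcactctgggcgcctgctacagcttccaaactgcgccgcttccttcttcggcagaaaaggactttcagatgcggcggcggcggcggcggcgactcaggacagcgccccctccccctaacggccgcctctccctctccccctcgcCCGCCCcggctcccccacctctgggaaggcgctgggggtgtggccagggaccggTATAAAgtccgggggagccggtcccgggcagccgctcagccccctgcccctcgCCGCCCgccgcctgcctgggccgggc

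The IGFBP3 window held GCGTG at 3 places, beginning 209, 167 and 55 bases before the start site, and the GC box at 2. GCGTG was present in 36.5% of the 35116 promoters of the same length and the GC box in 45.0%. The IGFBP4 window held TATAAA, found in 11.5% of promoters, at 29 bases before the start site, and the GC box at 2 places. Neither window held ACGTG, the other hypoxia-response core searched (21.4% of promoters), or the forkhead motif GTAAACA (3.42%). The IGFBP3 window was 74.7% G+C and the IGFBP4 window 74.0%.

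In the reference annotation (GENCODE 29, GRCh38), IGFBP1 lies at chr7:45888357-45893668 on the plus strand and IGFBP3 at chr7:45912245-45921874 on the minus strand. The neighbours are tail to tail, with 18576 bases between the gene ends. IGFBP2 (chr2:216632828-216664436, plus strand) and IGFBP5 (chr2:216672105-216695525, minus strand) form a second such pair, 7668 bases apart. The remaining genes lie singly: IGFBP4 at chr17:40443461-40457731, IGFBP6 at chr12:53097436-53102345, IGFBP7 at chr4:57030773-57110385, IGFALS at chr16:1790413-1794971 and IGF1 at chr12:102395874-102481744.

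IGFBP1 and IGFBP3 carried nearly all of the binding protein message in every library but Hep3B-C, and both fell in each stem-like line against its parent. IGFBP4 rose in Hep3B-C and IGFBP7 fell in Huh7-C. The other members were at or near the detection floor. The levels of IGFBP1 and IGFBP3 differed by larger folds between the parental lines than between the states: Huh7-C still held more IGFBP1 and IGFBP3 RNA than Hep3B.

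**Figure D1:**
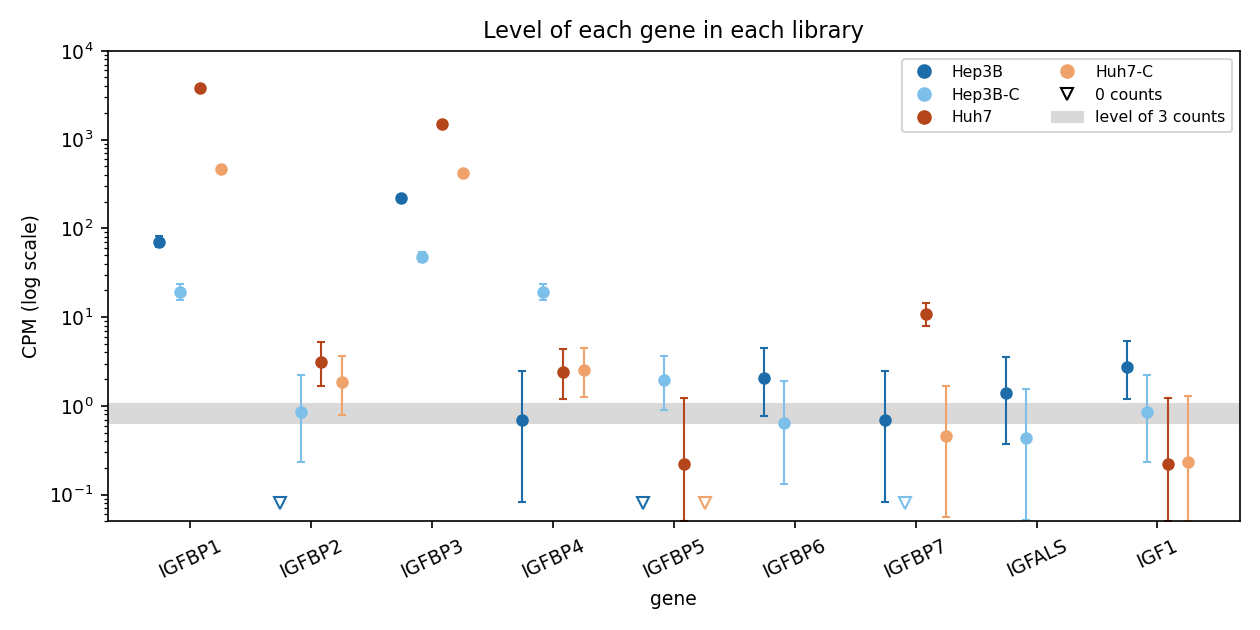
Level of each gene in CPM (log axis) in the 4 libraries; points are CPM with 95% Poisson intervals, open triangles mark 0 counts, and the grey band spans the level of 3 counts in the 4 libraries. IGFBP1 and IGFBP3 stand above all others in each library except Hep3B-C, where IGFBP4 (19.4 CPM) lies beside IGFBP1 (19.2 CPM); IGFBP6 and IGFALS have no row in the Huh7 and Huh7-C tables.

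IGF1, the ligand, had 8 counts in Hep3B against 4 in Hep3B-C, and 1 in Huh7 against 1 in Huh7-C. These levels, 2.76, 0.862, 0.220 and 0.231 CPM, lay near the floor in every library. No difference in IGF1 was detectable at this depth: the ratio of Hep3B to Hep3B-C was 3.21 with an interval from 0.859 to 14.5. IGFALS, which joins the ternary complex, had 4 counts in Hep3B and 2 in Hep3B-C, and no row in the Huh7 tables. Its ratio of Hep3B to Hep3B-C, also 3.21, had an interval from 0.459 to 35.4.

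IGFBP1 had 205 counts in Hep3B against 89 in Hep3B-C, and 17240 in Huh7 against 1995 in Huh7-C. In CPM the levels were 70.8 (95% Poisson interval 61.4 to 81.2), 19.2 (15.4 to 23.6), 3799 (3743 to 3857) and 460 (440 to 481). The order was Huh7, Huh7-C, Hep3B, Hep3B-C, and no neighbouring intervals overlapped. In Huh7, IGFBP1 was the 16th gene by count and the 28th by RPKM (counts scaled to gene length and library size), and took 0.380% of all gene counts. In Hep3B its RPKM stood at rank 1597 of the 15480 genes listed.

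IGFBP1 was 3.69-fold lower in Hep3B-C than in Hep3B (interval 2.86 to 4.79) and 8.25-fold lower in Huh7-C than in Huh7 (7.88 to 8.65). The log2 fold changes were -1.88 (counting SE 0.18) and -3.04 (SE 0.03). Both passed the pair test, the Poisson-based test of Audic and Claverie with Benjamini-Hochberg adjustment over all genes of the pair, at a false discovery rate (FDR) of at most 0.01 and a fold of at least 2.

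IGFBP3, the main carrier of circulating IGFs, had 639 counts in Hep3B against 220 in Hep3B-C, and 6720 in Huh7 against 1834 in Huh7-C. The corresponding levels were 221 CPM (204 to 238), 47.4 (41.3 to 54.1), 1481 (1446 to 1517) and 423 (404 to 443). The order of the libraries was the same as for IGFBP1, again with no overlap between neighbouring intervals. IGFBP3 was 4.65-fold lower in Hep3B-C (3.99 to 5.45; log2 fold change -2.22, SE 0.11) and 3.50-fold lower in Huh7-C (3.32 to 3.69; log2 fold change -1.81, SE 0.04). Both differences passed the pair test.

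IGFBP4, a carrier that is cleaved by the protease PAPPA and otherwise holds IGFs away from their receptor, had 2 counts in Hep3B against 90 in Hep3B-C, and 11 in Huh7 against 11 in Huh7-C. Its level was 19.4 CPM in Hep3B-C and between 0.691 and 2.54 CPM elsewhere. Only the Hep3B-C interval (15.6 to 23.8) was clear of the other libraries, whose intervals overlapped each other. The ratio of Hep3B-C to Hep3B was 28.1 with a counting interval from 7.55 to 235 (log2 fold change 4.50, SE 0.92), and it passed the pair test (Audic-Claverie test with Benjamini-Hochberg adjustment, FDR 6.3e-16). That ratio divides by the 2 counts of Hep3B, which lie below the 3-count floor. In the Huh7 pair the ratio was 1.05, with an interval from 0.412 to 2.66.

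IGFBP7, which binds IGFs weakly and is also known as a secreted matrix and vascular protein, had 2 counts in Hep3B against 0 in Hep3B-C, and 49 in Huh7 against 2 in Huh7-C. Its level in Huh7 was 10.8 CPM (7.99 to 14.3), above the intervals of the other 3 libraries. Its 2 counts in Huh7-C, by which the ratio below divides, lie below the 3-count floor. The ratio of Huh7 to Huh7-C was 23.4 with a counting interval from 6.14 to 199, and the difference passed the same test (log2 fold change -4.24, SE 0.94; FDR 2.3e-11). Beside it, the platelet-derived growth factor receptor PDGFRB, which made up most of the fibroblast and stellate sum in Huh7, went from 186 to 2 counts in that pair, while the collagen gene COL3A1 of the same list went from 0 to 58. The part of these markers in the IGFBP7 difference was not tested.

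IGFBP2, IGFBP5 and IGFBP6 stayed below 4 CPM. IGFBP2, a carrier abundant in fetal liver, had 0 counts in Hep3B against 4 in Hep3B-C, and 14 in Huh7 against 8 in Huh7-C. Its ratio of Huh7 to Huh7-C was 1.67 (0.654 to 4.60). Huh7 held 2.98-fold more IGFBP2 than the 3-count floor of Hep3B, and the counting interval of the Huh7 to Hep3B ratio began at 2.12. IGFBP5, which binds matrix and can form ternary complexes, had 0 counts in Hep3B against 9 in Hep3B-C, and 1 in Huh7 against 0 in Huh7-C. With Hep3B set at the 3-count floor, Hep3B-C was 1.87-fold higher, and the counting interval of the ratio itself began at 1.23. With 0.5 added to the counts, the interval of the log2 fold change ran from -0.54 to 7.67. The pair test gave an FDR of 0.041 (Audic-Claverie, Benjamini-Hochberg) and no call. IGFBP6, a carrier that prefers IGF2, had 6 counts in Hep3B and 3 in Hep3B-C, a ratio of 3.21 with an interval from 0.685 to 19.8.

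**Figure D2:**
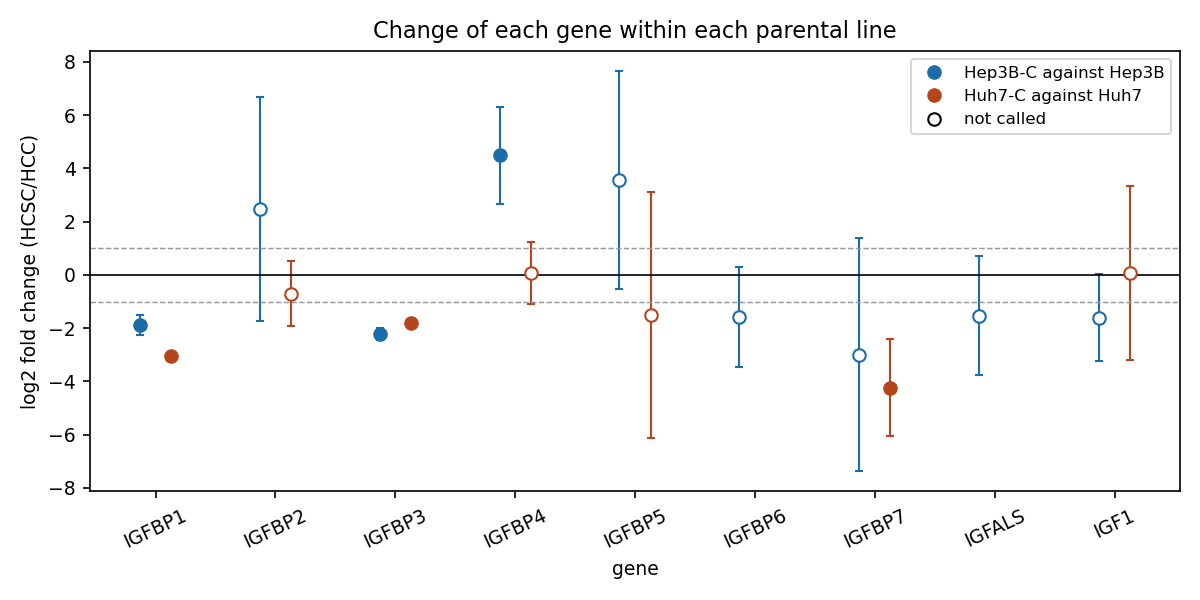
Log2 fold change (HCSC/HCC) of each gene within each parental line, with 95% counting intervals; filled points passed the pair test and the dashed lines mark a 2-fold change. IGFBP1 and IGFBP3 lie below -1 in both pairs, IGFBP4 lies at 4.50 in the Hep3B pair and 0.07 in the Huh7 pair, and the intervals of the low genes span 0 except that of IGFBP7 in the Huh7 pair.

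Counted over the list, 1 of 9 genes was called higher in Hep3B-C, where 13.2% of all 15480 genes were called higher. In the same pair 2 of 9 were called lower, against 30.4% of all genes, so the share of members called lower was near the background there. In Huh7-C, 3 of the 7 listed genes were called lower, against 4.15% of the 14807 genes, and 0 were called higher, against 4.19%. No gene of the list was higher in Huh7-C at an unadjusted p under 0.05, and the exact binomial test and edgeR with an assumed biological coefficient of variation of 0.4 also gave 0. Of the 9 genes, 5 had more than 3 counts in Hep3B against 6 in Hep3B-C, and 5 in Huh7 against 4 in Huh7-C.

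The scale of the Hep3B pair depends on how library size is set. With total counts, the median of the 11433 genes that reached 20 counts lay at a log2 fold change of -0.55 in that pair, and 2043 genes were called higher against 4708 lower. With TMM (trimmed mean of M-values) library sizes the median was 0.04 and the split was 3348 against 2799. In the Huh7 pair the medians were 0.06 and 0.02. On the TMM scale the Hep3B-C changes were -1.28 for IGFBP1, -1.62 for IGFBP3 and 5.09 for IGFBP4, and all remained calls. The log2 fold changes of the Hep3B pair also moved with G+C content (Spearman 0.631 over 11338 genes; -0.06 over 11060 genes in the Huh7 pair) and with gene length (-0.434 and 0.315). IGFBP4 is rich in G+C (62.5% of its transcript bases, above 90.3% of genes), whereas IGFBP1 (50.2%) and IGFBP3 (49.5%) are near the middle. With the trends on G+C and length removed, the Hep3B-C changes were -2.40 for IGFBP1, -2.29 for IGFBP3 and 2.95 for IGFBP4. If the libraries were assumed to vary with a biological coefficient of variation of 0.4, IGFBP4 alone was still called in the Hep3B pair, and 0 genes of the list were called in the Huh7 pair. Over all genes this setting called 62 higher and 169 lower in the Hep3B pair, and 13 and 12 in the Huh7 pair.

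**Figure D3:**
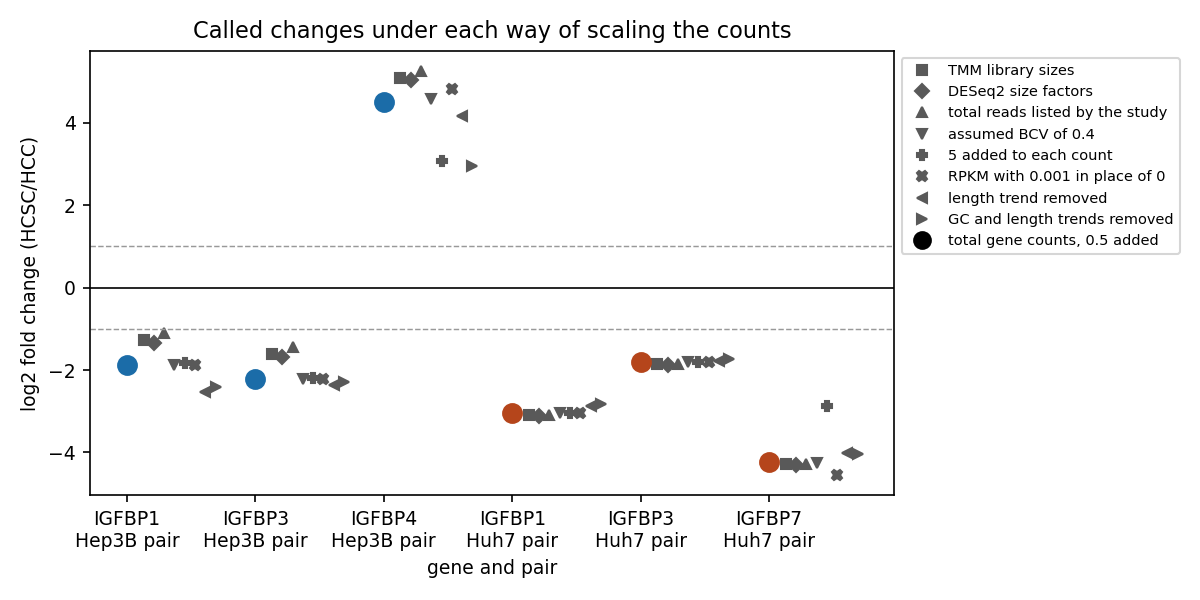
Log2 fold changes (HCSC/HCC) of the 6 called differences with total gene counts (large points) and under 8 other scalings, additions or assumed spreads (grey symbols). Every value keeps its sign; IGFBP1 in the Hep3B pair spans -2.53 to -1.11 and IGFBP4 spans 2.95 to 5.26, while IGFBP1 in the Huh7 pair stays between -3.11 and -2.82.

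The 2 pairs differed in how far these genes moved. The log2 fold change of IGFBP1 was 1.17 less negative in the Hep3B pair than in the Huh7 pair (counting interval 0.80 to 1.53), 1.80 on the TMM scale and 0.42 with the G+C and length trends removed. For IGFBP4 the difference was 4.43 (2.27 to 6.59), 5.07 with TMM and 2.84 with both trends removed. For IGFBP3 the difference was -0.41 (-0.64 to -0.18) with total counts but 0.23 with TMM and -0.57 with both trends removed, so which pair fell further depends on the scaling.

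The ratio of IGFBP1 to IGFBP3 within a library does not depend on library size. Per length (in RPKM) it was 0.512 in Hep3B (0.437 to 0.599), 0.645 in Hep3B-C (0.504 to 0.825), 4.09 in Huh7 (3.98 to 4.21) and 1.73 in Huh7-C (1.63 to 1.85). IGFBP3 was thus the more abundant of the 2 messages in the Hep3B lineage and IGFBP1 in the Huh7 lineage. Between Huh7 and Huh7-C the ratio fell by 1.24 on the log2 scale (1.34 to 1.14 lower). Between Hep3B and Hep3B-C it moved by 0.33, with an interval from -0.09 to 0.76 that includes 0. The direction in this pair depends on the trends. IGFBP1 fell further than IGFBP3 with the length trend removed (-2.53 against -2.36) and with both trends removed (-2.40 against -2.29).

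Summed over IGFBP1 to IGFBP7, the binding proteins had 854 counts (295 CPM) in Hep3B and 415 (89.4 CPM) in Hep3B-C, beside 24035 (5297 CPM) in Huh7 and 3850 (888 CPM) in Huh7-C. The sum was 3.30-fold lower in Hep3B-C than in Hep3B (2.93 to 3.72; 2.18-fold on the TMM scale) and 5.96-fold lower in Huh7-C than in Huh7 (5.76 to 6.17; 6.14-fold on the TMM scale). IGFBP1 and IGFBP3 together made 98.8% of these counts in Hep3B, 99.7% in Huh7 and 99.5% in Huh7-C, but 74.5% in Hep3B-C. In RPKM, IGFBP4 made 21.7% of the Hep3B-C sum and 0.238% of the Hep3B sum. IGFBP3 made 64.6% of the RPKM sum in Hep3B and 45.2% in Hep3B-C, beside 19.6% in Huh7 and 36.3% in Huh7-C, and IGFBP1 made most of the rest in Huh7 and Huh7-C.

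**Figure D4:**
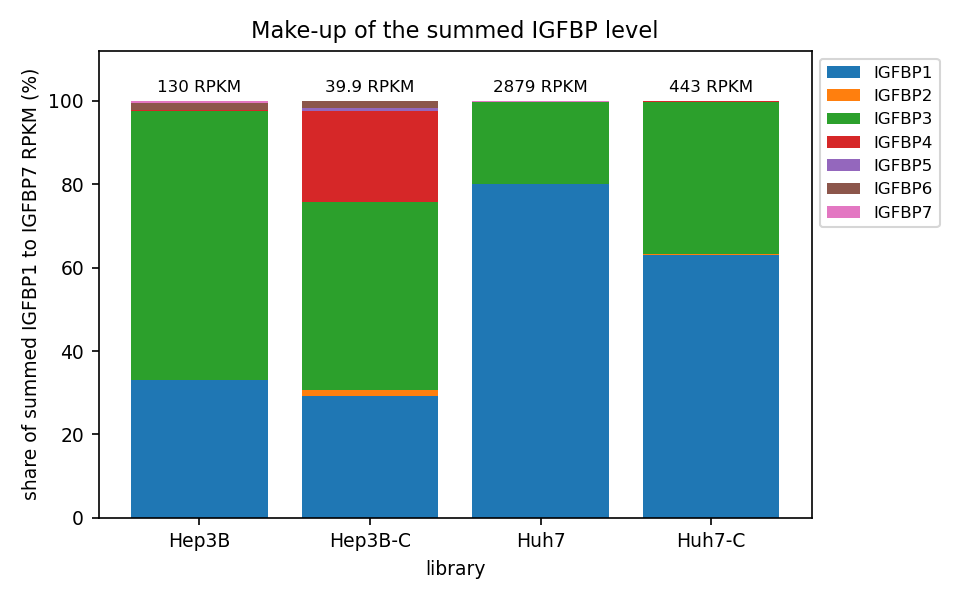
Share of each binding protein in the summed RPKM of IGFBP1 to IGFBP7 in each library, with the summed RPKM above each bar (IGFBP6 has no row in the Huh7 tables). IGFBP1 and IGFBP3 fill nearly the whole bar except in Hep3B-C, where IGFBP4 takes 21.7%; the sums are 130, 39.9, 2879 and 443 RPKM.

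Both lineages were compared in a joint fit of all 4 libraries (edgeR quasi-likelihood test with TMM, with terms for parental line and state and 1 residual degree of freedom). IGFBP1, IGFBP3 and IGFBP4 were the 3 members with enough counts to enter it. Huh7 held 53.7-fold more IGFBP1 than Hep3B (46.8 to 61.9), and Huh7-C 24.0-fold more than Hep3B-C (19.4 to 30.0). For IGFBP3 these folds were 6.71 (6.19 to 7.29) and 8.93 (7.76 to 10.3). In the joint fit the Huh7 lineage was higher by 5.15 on the log2 scale for IGFBP1 (edgeR FDR 2.4e-05) and by 2.94 for IGFBP3 (edgeR FDR 0.020), so 2 of 3 members were called higher, against 3.65% of the 11691 genes tested. For IGFBP4 the lineage term was -1.08 (edgeR FDR 0.80), and 0 members were called lower, against 4.82% of genes. With a library left out, the state term was dropped as well, so 1 lineage had a lone library and state was mixed with lineage. Without Huh7 the lineage term was then 3.48 for IGFBP1 and 1.80 for IGFBP3. It was 5.16 and 2.35 without Hep3B-C, and 6.56 and 3.64 without Huh7-C. These fits cannot test whether a call depends on 1 library.

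For HCSC against HCC over both lines, 0 members were called. The joint log2 fold changes were -2.31 for IGFBP1, -1.84 for IGFBP3 and 2.34 for IGFBP4, each with an edgeR FDR of 1.0. All 3 had an unadjusted p under 0.05 in edgeR, as did 372 of the 11691 genes. With no line term their unadjusted edgeR p-values were 0.15, 0.19 and 0.078. DESeq2 with the same design gave an FDR of 0.30 for IGFBP1 and 0.61 for IGFBP3. Over all 11691 genes the same edgeR term called 0.0342% higher and 0.0428% lower. With 2 libraries against 2, an exact permutation test of a single gene that ignored the pairing could not go below p = 0.33.

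The genes with profiles most like these members were found among 9909 genes with at least 50 counts in some library, by the Euclidean distance between log2(CPM + 1) profiles over the 4 libraries, each centred on its mean. Nearest to IGFBP1 were PAQR5 (distance 1.35), the membrane-associated protein gene BASP1 (1.35) and G6PC (1.41), the glucose-6-phosphatase of gluconeogenesis. G6PC had 3, 2, 1895 and 122 counts in Hep3B, Hep3B-C, Huh7 and Huh7-C. Nearest to IGFBP3 were the troponin gene TNNT1 (0.28), HAVCR1 (0.39), which encodes kidney injury molecule, and the collagen gene COL6A2 (0.53). HAVCR1 had 46, 12, 597 and 187 counts. Nearest to IGFBP4 were PCYT2 (0.27), an enzyme of phosphatidylethanolamine synthesis, FAH (0.29), the last enzyme of tyrosine breakdown, and MFSD3 (0.35). FAH had 76, 1914, 287 and 317 counts. The profiles rest on 4 points that share their library sizes.

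Within 2 Mb of the IGFBP1 start site, and leaving out IGFBP3, 30 genes were listed in the Hep3B pair, of which 10 were called higher in Hep3B-C and 4 lower (13.2% and 30.4% of all genes). Between Huh7 and Huh7-C, 0 of 28 were called higher and 2 lower (4.19% and 4.15% of all genes). The nearest of them to IGFBP1, the septin pseudogene SEPT7P2, was lower in both pairs (71 to 18 and 60 to 28 counts), with a copy elsewhere that could share its reads. The adenylate cyclase gene ADCY1, next in distance, had 26 and 49 counts in the Hep3B pair and was called lower in the Huh7 pair (98 to 44 counts).

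The ligands and receptors that these carriers serve moved differently in the 2 pairs. IGF2, the fetal ligand, had 11888 counts in Hep3B against 326 in Hep3B-C, and 1 in Huh7 against 0 in Huh7-C, so that it was 58.4-fold lower in Hep3B-C (log2 fold change -5.87, SE 0.08). IGF2 overlaps other transcripts at its locus, and the strand of counting is not given in the sources used here. IGF1R, the receptor for IGF1 and IGF2, had 311, 215, 344 and 239 counts. It was called lower in Hep3B-C (log2 fold change -1.21; -0.62 and no call with TMM) and had a log2 fold change of -0.46 in the Huh7 pair. With the G+C and length trends removed, IGF1R was not called in the Hep3B pair (-0.22) and was called lower in the Huh7 pair (-1.01). INSR, the insulin receptor, was 4.70-fold lower in Hep3B-C (604 to 206 counts) and had 273 and 434 counts in the Huh7 pair, a log2 fold change of 0.73. IGF2R, which clears IGF2, had 2416 and 2514 counts in the Hep3B pair (log2 fold change -0.62) and rose from 817 to 1764 counts in the Huh7 pair (log2 fold change 1.18; 0.79 and no call with the G+C and length trends removed). INS was not among the listed genes.

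Among the IGFBP proteases and their inhibitors, 1 of 11 listed genes was called higher in Hep3B-C and 3 lower (13.2% and 30.4% of all genes). With TMM sizes 3 were called higher and 3 lower, beside 3348 and 2799 of all 15480 genes. The median log2 fold change was 0.21 over the 6 that reached 20 counts, against -0.55 over all genes. The plasmin precursor PLG had 3 counts in Hep3B and 171 in Hep3B-C, a ratio of 35.6 (12.0 to 174). ADAM28, a protease that cleaves IGFBP3, had 9 and 0 counts, 4.81-fold lower against the 3-count floor (counting interval from 3.16 upward). In the Huh7 pair 1 of 11 was called lower, prothrombin (F2; 1254 to 507 counts, log2 fold change -1.24), and 0 higher (4.15% and 4.19% of all genes); the median was -0.28 against 0.06 over all 11134 genes.

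Of the secreted proteins with an IGFBP-like domain, 3 of 6 were called lower in Hep3B-C, against 30.4% of all genes, and 0 higher, against 13.2% (median log2 fold change -2.53 over 3 genes). With TMM sizes 2 of 6 were called lower, as CYR61 was not, beside 2799 of all 15480 genes. CRIM1 was 8.38-fold lower there (68 to 13 counts) and CTGF, a matrix-associated growth regulator, 5.82-fold lower (167 to 46 counts). None of the 4 listed was called between Huh7 and Huh7-C (median -0.25), where 4.19% of all genes were called higher and 4.15% lower. CTGF had 94 and 93 counts there.

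For the receptor signalling list, from the insulin receptor substrates to mTOR and FOXO, 2 of 31 genes were called higher and 14 lower in Hep3B-C (median -0.91); over all genes 13.2% and 30.4% were called. With TMM sizes the counts became 8 and 11, beside 3348 and 2799 of all 15480 genes. With the G+C and length trends removed they became 1 and 6, beside 694 and 3592 of all genes. The exchange factor SOS1 was 7.17-fold lower in Hep3B-C (282 to 63 counts). In the Huh7 pair 1 of 30 was called higher and 0 lower (4.19% and 4.15% of all genes; median 0.30). That gene was FOXO1 (156 to 309 counts, log2 fold change 1.05; 0.82 and no call with the G+C and length trends removed), the factor through which insulin represses IGFBP1. FOXO1 was 5.99-fold lower in Hep3B-C (284 to 76 counts). The FOXO1 message was thus lower in Hep3B-C and higher in Huh7-C, and IGFBP1 was lower in both. The part of FOXO1 in the IGFBP1 differences was not tested.

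In the growth hormone axis, which drives IGF1 and IGFALS in liver, 4 of 9 genes were called lower in Hep3B-C, against 30.4% of all genes (median -1.09 over 6 genes). In Huh7-C 2 of 8 were called lower, against 4.15% (median -1.53 over 4 genes). In Hep3B-C and Huh7-C 0 were called higher, against 13.2% and 4.19% of all genes. With TMM sizes 2 of 9 were called lower in Hep3B-C, as JAK2 and PRLR were not, beside 2799 of all 15480 genes. SOCS2, a feedback inhibitor of this axis, was called lower in both pairs. Between Hep3B and Hep3B-C it went from 12 to 0 counts, 6.41-fold lower against the 3-count floor (counting interval from 4.45 upward). Between Huh7 and Huh7-C it went from 49 to 11 counts (4.25-fold lower). The growth hormone receptor GHR was 11.6-fold lower in Hep3B-C (65 to 9 counts) and had 26 and 12 counts in the Huh7 pair, which was not a call. SOCS3, a further feedback inhibitor, was 5.30-fold lower in Huh7-C (61 to 11 counts). Of the 3 IGF2 mRNA-binding proteins, IGF2BP2 (log2 fold change -1.60) and IGF2BP3 (-1.41) were called lower in Hep3B-C, where 30.4% of all genes were. In Huh7-C 0 were called, against 4.19% of all genes called higher and 4.15% lower. IGF2BP3 was not called with TMM sizes (-0.82) or with the G+C and length trends removed (-0.25). The medians of these 3 genes were -1.41 and 0.12.

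The list of liver genes that insulin represses through FOXO, as it does IGFBP1, had 5 of 10 members called lower and 0 higher in Hep3B-C (30.4% and 13.2% of all genes; median -1.13). In Huh7-C, 4 of 10 were called lower and 2 higher (4.15% and 4.19% of all genes; median -0.17). PPARGC1A, the co-activator of gluconeogenesis, was called lower in both, with 109 to 11 counts in the Hep3B pair (15.9-fold). In the Huh7 pair it went from 127 to 0 counts, 40.4-fold against the 3-count floor, with a counting interval from 32.4 upward. PDK4, a kinase that restrains pyruvate oxidation, had 14 and 1 counts in the Hep3B pair, a ratio of Hep3B to Hep3B-C of 22.4 (3.41 to 949). PDK4 was called higher in the Huh7 pair (14 to 83 counts, 6.21-fold). The stress-response gene SESN3 had 0 and 31 counts in the Huh7 pair, 10.8-fold higher against the 3-count floor (counting interval from 8.29 upward). G6PC, which was also among the nearest to IGFBP1 by profile, was 14.8-fold lower in Huh7-C and had 3 and 2 counts in the Hep3B pair. It is named here for that likeness, which rests in part on the same fall, as IGFBP1 itself was 8.25-fold lower in Huh7-C. Whether FOXO activity differed between the libraries was not tested. INSR stands in this list as well as among the receptors, and IRS2 also in the signalling list.

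Among cell-surface and matrix partners of the IGFBPs, 3 of 15 genes were called higher in Hep3B-C and 9 lower (13.2% and 30.4% of all genes; median -1.34 over 13 genes). With TMM sizes this became 3 and 4, beside 3348 and 2799 of all 15480 genes. With the G+C and length trends removed it became 1 and 6, beside 694 and 3592 of all genes. The adhesion protein SPP1 (osteopontin) had 3 counts in Hep3B and 137 in Hep3B-C, a ratio of 28.5 (9.55 to 140). In the Huh7 pair 2 of 14 were called lower and 0 higher (4.15% and 4.19% of all genes; median -0.47 over 11 genes). These were transferrin (TF), a reported IGFBP3 partner, and caveolin (CAV1), and both were also called lower in Hep3B-C. TF had 20900 and 15535 counts in the Hep3B pair (log2 fold change -1.11; -0.51 and no call with TMM) and 7019 and 1384 in the Huh7 pair (-2.28). CAV1 had 101 and 17 counts (log2 fold change -3.22) and 72 and 20 counts (-1.76). TF is also a hepatocyte marker. In the Huh7 pair the summed hepatocyte markers went from 47653 to 19625 CPM beside the lower IGFBP1 and IGFBP3, and in the Hep3B pair from 53328 to 71425 CPM. The single markers did not all follow the sum: between Huh7 and Huh7-C, ALB went from 106 to 267 CPM, and between Hep3B and Hep3B-C, AFP went from 5584 to 905 CPM. Their part in the IGFBP1 and IGFBP3 differences was not tested.

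**Figure D5:**
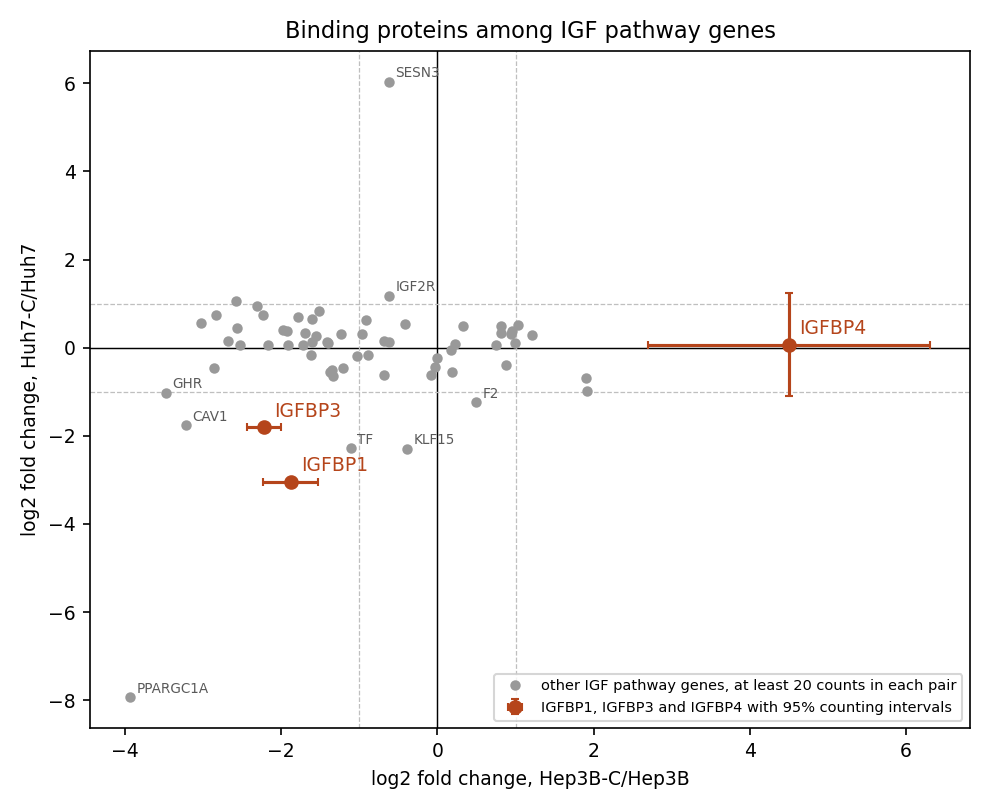
Log2 fold change in the Hep3B pair (horizontal) against that in the Huh7 pair (vertical) for IGF pathway genes that reached 20 counts in both pairs (grey) and for IGFBP1, IGFBP3 and IGFBP4 with 95% counting intervals; dashed lines mark a 2-fold change. IGFBP1 and IGFBP3 lie in the lower left with PPARGC1A, CAV1 and TF, while IGFBP4 lies to the right at 4.50 with a value of 0.07 on the vertical axis.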

How the data were processed

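An Illumina Genome Analyzer II was used on total RNA of 4 cell lines. The authors filtered the reads, aligned them to NCBI Build 36.1 with NextGENe (version not given in the sources used here) and deposited raw read counts per gene with a gene length. Here CPM used each library's summed gene counts, and RPKM the listed length. The 9 genes and all gene lists were chosen with earlier results of these data known. Each HCSC library was tested against its parent with the Audic-Claverie test (tail doubled, Benjamini-Hochberg over all genes, FDR at most 0.01, at least 2-fold, 0.5 added for log2 fold changes) in Python 3.11.15 (scipy 1.17.1). Intervals are 95% exact Poisson or conditional binomial ones; they cover counting error only, as reads carry no molecular identifiers. The 4 libraries were fitted jointly with edgeR 4.0.16 in R 4.3.3 (TMM, filterByExpr, parental line and state, FDR at most 0.05). DESeq2 1.42.0 was an alternative. The spread in this fit comes from how unlike the changes of the 2 pairs were, shared over genes. Its p-values hold no spread between replicate cultures, as there were none. Both tests were run on simulated data, the pair test with counting error only and the joint fit with less spread than was estimated here. Those runs do not show how often the tests err on these libraries. Other settings were 3 other library sizes, an exact binomial test, an assumed biological coefficient of variation of 0.4, low-count filters, other values added to low counts, trends on length and G+C removed, no replicate block and each library left out. All 9 genes were named; of the pathway lists values were given for ligands and receptors, for genes called in the same direction in both pairs, and for the 2 called genes with the largest change of each list and pair, except that 1 such value is not reported here. The single cell type markers with values, CYR61, JAK2, PRLR, CTGF and GHR in the Huh7 pair, and the genes near IGFBP1 were chosen after their values were seen. Positions and G+C came from GENCODE 29 (GRCh38), which differs from the authors' build and was used for annotation only.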

Additional observations from a re-analysis of the deposited data

Results flagged for a closer look

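The log2 fold changes of 3 binding proteins differed between the Hep3B and Huh7 pairs by more than counting error. For IGFBP1 the Hep3B pair minus the Huh7 pair was 1.17 (95% counting interval 0.80 to 1.53; 0.42 with G+C and length trends removed). For IGFBP3 it was -0.41 (-0.64 to -0.18), and 0.23 with TMM library sizes. For IGFBP4 it was 4.43 (2.27 to 6.59), and 2.84 with both trends removed. The intervals hold no spread between cultures, since each line had 1 library.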

How the results depend on the processing

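Of the log2 fold changes of single members in a pair, 114 kept their direction and call status, 6 gained a call, 5 lost one and 3 turned sign. Those that turned were of IGF1, at 1 to 8 counts a library: 0.07 in the Hep3B pair with G+C and length trends removed, and -0.27 and -0.28 in the Huh7 pair with the length trend or both removed. In the Hep3B pair 2 members were called higher with TMM sizes, the study's total reads or the length trend removed (IGFBP5 joined IGFBP4), and 4 lower with both trends removed (IGFALS and IGFBP6 joined). Over all 15480 genes these settings called 3348, 3745 and 1685 higher in that order, and both trends removed called 3592 lower. With an assumed biological coefficient of variation of 0.4, 0 members were called lower in either pair. For the Huh7 lineage against the Hep3B lineage, 1 member was called higher with no replicate block (the state term left out), beside 313 of 11691 genes. IGFBP1 had an edgeR FDR of 0.019 and IGFBP3 of 0.098. With each library left out in turn, the state term was left out too (the remaining lone library assumed to vary like the others). The lineage term then ran from 3.48 to 6.62 for IGFBP1, from 1.80 to 4.15 for IGFBP3 and from -3.14 to 2.02 for IGFBP4. For HCSC against HCC, 0 members were called with the block and without it. With Huh7 left out, and the line term with it, the IGFBP1 term was 1.99, as Hep3B was then the only HCC library. Over all genes, the assumed coefficient gave 62 higher and 169 lower calls in the Hep3B pair and 13 and 12 in the Huh7 pair, against 620 and 614 in the Huh7 pair without it. Both trends removed gave 694 higher and 3592 lower in the Hep3B pair. The edgeR state term called 4 genes higher and 5 lower, against 0 and 0 with no replicate block, 6 and 8 without the filter, 3 and 3 with total counts and 6 and 9 in DESeq2. As shares of counts instead of RPKM, IGFBP1 made 24.0%, 21.4%, 71.7% and 51.8% of the binding protein sum in Hep3B, Hep3B-C, Huh7 and Huh7-C. Depth limits IGFBP2, IGFBP5, IGFBP6, IGFALS and IGF1, which had at most 14 counts. It also limits IGFBP4 outside Hep3B-C (at most 11 counts) and IGFBP7 outside Huh7 (at most 2 counts).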
